A study of Mus musculus with 4 samples.

Results

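The SR splicing factor genes encode RNA-binding proteins with a domain rich in arginine and serine, and 10 of them were examined here among the 55401 genes of the count table. They were chosen by gene symbol and not by their values: Srsf1, Srsf2, Srsf3, Srsf4, Srsf5, Srsf6, Srsf7, Srsf10, Srsf11 and Tra2b. Earlier results of these data were known when the list was set. All 10 were found in the table and all 10 passed the filter on low counts, which 14123 genes passed. The libraries were poly(A)-selected RNA from follicular B (FOB) cells, the recirculating naïve B cells of the spleen, sorted as B220+CD93-CD23highCD21low from C57BL/6 mice of 7 weeks. WT mice were Hnrnpf fl/fl without Cre and gave 2 libraries. Hnrnpf bKO mice were Hnrnpf fl/fl with Cre expressed in B cells and gave 2 libraries. Both genotypes thus carried the floxed Hnrnpf alleles, and the presence of the Cre allele cannot be told apart from the loss of hnRNP F. The sources used here do not say whether a library came from 1 mouse or from pooled mice, so the p-values measure only the spread between these libraries. The comparison asks which mRNAs differ in abundance when B cells lack hnRNP F, an RNA-binding protein that recognises runs of G in pre-mRNA.

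SR proteins bind short exonic sequences through their RNA recognition motifs and recruit the U1 and U2 small nuclear ribonucleoproteins through the arginine-serine domain, so that weak exons are included in the mRNA. Phosphorylation of that domain by SRPK and CLK kinases sets their import into the nucleus, their release from nuclear speckles and their activity. Many SR genes limit their own mRNA by splicing in a poison exon or by retaining an intron, which sends the transcript to nonsense-mediated decay or holds it in the nucleus.

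Transcripts of these kinds are annotated for most SR genes (GENCODE M21, GRCm38). Of their 89 annotated transcripts, 29 were protein coding, 17 were marked as targets of nonsense-mediated decay and 29 as retained intron transcripts. In 9 of the 10 genes at least 1 transcript was marked for decay, Srsf10 being the gene without one. That held for 20.5% of all annotated genes with a coding transcript and for 34.4% of those with a mean count at or above that of the lowest SR gene. The gene-level counts add reads from all of these transcripts, so they do not separate coding from non-coding forms.

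The authors' table of altered splicing events listed 1 of the 10 SR genes. That gene was Srsf5, with 1 retained intron event, beside 227 retained intron events among 1556 events in 1173 genes overall. Of all genes tested for abundance 8.22% were listed, and 12.5% of the 4764 genes with a mean count at or above that of the lowest SR gene. A share of 1 in 10 lies between these shares. Because the table gives no coordinates for its events, the intron of Srsf5 is not identified by it. Srsf5 (ENSMUSG00000021134, chr12:80945504-80950507, plus strand, GRCm38) has 6 introns that lie wholly inside an exon of another annotated transcript, and 4 of these are introns of its main coding transcript, which has 8 exons. Those 4 are printed as the annotated candidates for the listed event, 5′ to 3′ on the transcribed strand, with every run of 3 or more G in capitals, since hnRNP F recognises such runs. Introns 4 and 7 are whole, while introns 2 and 5 are shown by their first 150 bases.
Srsf5 intron 2, chr12:80946721-80947310: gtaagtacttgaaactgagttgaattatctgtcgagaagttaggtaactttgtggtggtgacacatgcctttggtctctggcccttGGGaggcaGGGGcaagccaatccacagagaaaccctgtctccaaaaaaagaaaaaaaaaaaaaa
Srsf5 intron 4, chr12:80947595-80947795: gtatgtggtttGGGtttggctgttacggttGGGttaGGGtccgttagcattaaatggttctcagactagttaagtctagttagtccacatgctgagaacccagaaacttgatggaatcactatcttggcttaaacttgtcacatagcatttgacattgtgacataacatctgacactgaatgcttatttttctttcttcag
Srsf5 intron 5, chr12:80947866-80949094: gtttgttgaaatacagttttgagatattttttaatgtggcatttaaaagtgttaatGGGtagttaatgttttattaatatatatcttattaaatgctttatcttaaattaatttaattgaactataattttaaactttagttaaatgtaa
Srsf5 intron 7, chr12:80949605-80949719: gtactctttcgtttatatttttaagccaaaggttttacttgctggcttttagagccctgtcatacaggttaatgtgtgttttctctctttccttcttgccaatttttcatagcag

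The 4 candidate introns differed in how many G runs they held. Intron 4 (201 bases) held 3, all of them near its 5′ splice site, and intron 7 (115 bases) held 0. Intron 2 (590 bases) held 6 and intron 5 (1229 bases) held 12 over their whole lengths. Across the SR genes, 21 introns in 8 of the 10 genes lay inside an annotated exon in this way. Of the 20 that were 60 bases or longer, 8 had at least 1 G run in their first 60 bases and 4 had at least 3. Over 11994 such introns of all genes, 66.6% had at least 1 run there and 23.1% had at least 3. In both counts, introns with the same 5′ splice site were counted separately, so the same 60 bases can enter more than once. This was so for introns of Srsf2, Srsf5 and Srsf6, and the Srsf6 introns concerned are among those with at least 3 runs. These are matches to letters on the transcribed strand and not measured binding sites.

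Measured per length, the SR mRNAs ranged from 11.9 to 150 FPKM in WT FOB cells, and all of them lay above the median tested gene. Levels are the deposited FPKM, that is, read counts divided by the exonic length of the gene and by the library total. Srsf5 was the highest, at 150 ± 2.98 FPKM in WT (SD, n = 2), followed by Srsf2 at 115 ± 0.693 and Srsf6 at 98.2 ± 1.12. Srsf7 stood at 90.2 ± 7.01 FPKM and Srsf1 at 76.0 ± 2.04 (SD, n = 2). The remaining genes were well below, with Srsf11 at 42.0 ± 0.29 FPKM, Srsf3 at 32.5 ± 0.134 and Srsf10 at 26.6 ± 0.594. Tra2b at 13.1 ± 0.148 FPKM and Srsf4 at 11.9 ± 1.17 were the lowest. Among all tested genes, these mean FPKM levels spanned percentiles 69.2 (Srsf4) to 98.4 (Srsf5). No neighbours in this order overlapped between their WT libraries, although with 2 libraries that is a description only.

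**Figure D1:**
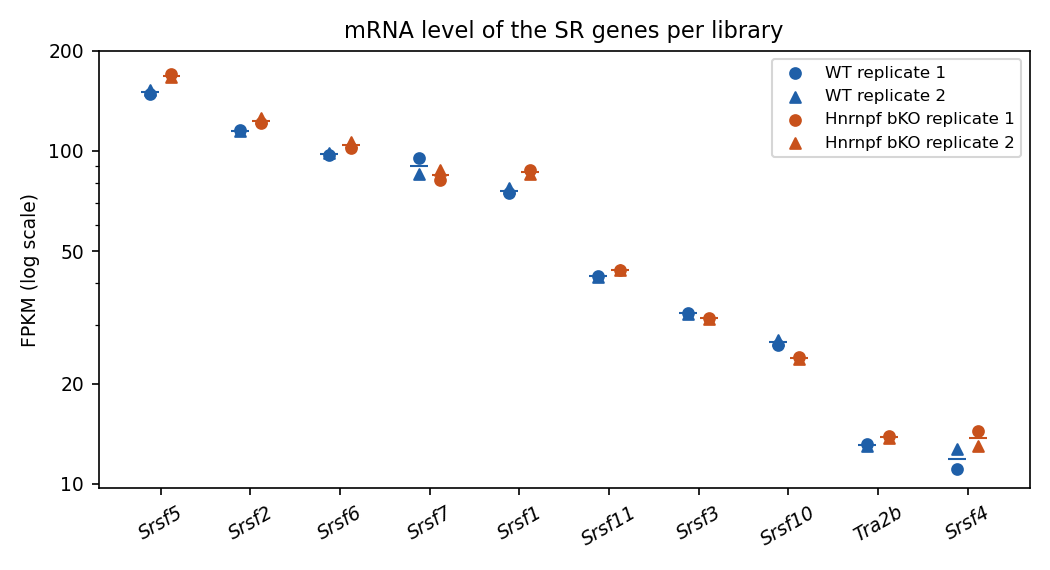
FPKM (log axis) of each SR gene in the 2 WT (blue) and 2 Hnrnpf bKO (orange) libraries, circles for replicate 1 and triangles for replicate 2, with a short line at each group mean. The genes are ordered by their WT mean, and Srsf1 lies above Srsf7 only by its Hnrnpf bKO mean (86.5 against 84.7 FPKM).

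The order was the same in Hnrnpf bKO except that Srsf1 (86.5 ± 1.65 FPKM, SD, n = 2) had a higher mean than Srsf7 (84.7 ± 3.76). For those 2 genes the Hnrnpf bKO libraries overlapped, with Srsf1 at 87.67 and 85.33 FPKM and Srsf7 at 82.06 and 87.38. The Hnrnpf bKO libraries of Tra2b (13.91 and 13.7 FPKM) and Srsf4 (14.42 and 13.0 FPKM) overlapped as well. FPKM divides by the summed length of all annotated exons, which was 1.06 times the main coding transcript for Srsf1 and 3.02 times for Srsf3. Divided by the length of the main coding transcript instead, 7 of the 10 genes kept their rank, while Srsf1 moved from rank 5 to rank 7, Srsf11 from 6 to 5 and Srsf3 from 7 to 6. The middle of the order therefore rests on which length is used, and the places of Srsf5, Srsf2, Srsf6 and Srsf7 at the top did not.

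Between the genotypes, 2 of the 10 SR genes passed the test and both rose in Hnrnpf bKO, Srsf1 by 1.15-fold and Srsf5 by 1.13-fold. No SR gene fell past the test, and no SR gene reached a 2-fold change, which 0.899% of all tested genes did together with the test. Called genes are those with an adjusted p of at most 0.05 in edgeR's quasi-likelihood test over all tested genes. By that rule 6.97% of all tested genes were called, 4.15% as higher and 2.83% as lower in Hnrnpf bKO. Among the 4764 genes with a mean count at or above that of the lowest SR gene (787.5), 11.9% were called, 6.68% as higher and 5.21% as lower, and 0.084% with a 2-fold change. The median log2 fold change of the SR genes was 0.09 and that of all tested genes was -0.002. Of the 10 log2 fold changes 7 were above 0, beside 49.6% of all tested genes and 48.7% of the 4764. The Hnrnpf bKO libraries lay wholly above the WT libraries for 7 SR genes and wholly below for 2, where 25.3% and 24.8% of all tested genes did so, and 28.5% and 29.7% of the 4764. At an unadjusted p under 0.05, the count was 5 of 10 beside 20.3% of all tested genes and 28.8% of the 4764. Those 5 were Srsf1, Srsf2, Srsf4 and Srsf5 on the higher side and Srsf10 on the lower side, and DESeq2 called Srsf1 and Srsf5 as well. The smallest p that exact permutation of 2 libraries against 2 can give is 0.333, so the calls rest on the spread shared across genes.

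**Figure D2:**
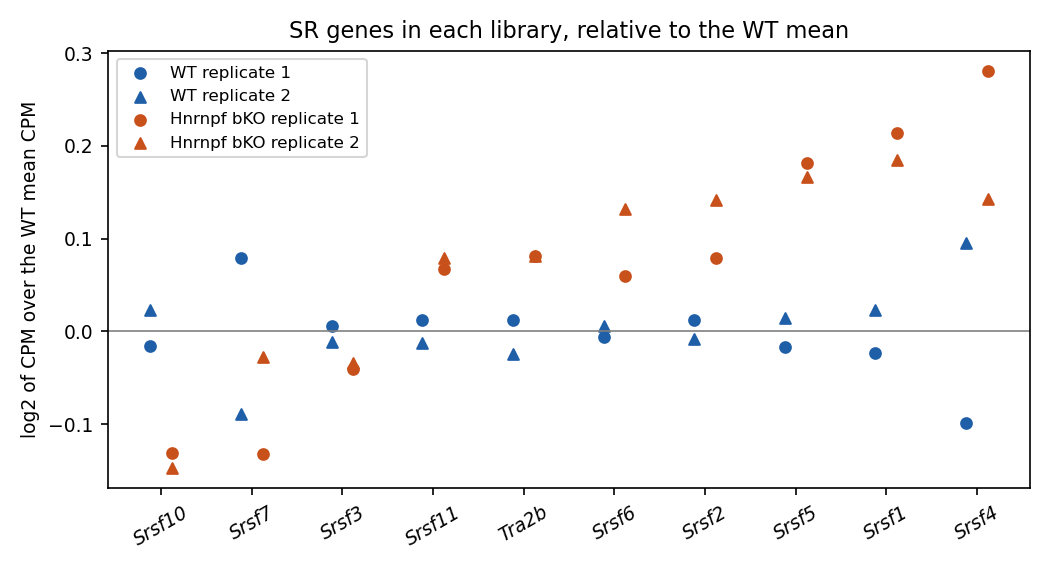
Each library's CPM (its counts scaled to a common library total) over the WT mean of that gene, as a log2 value, for the SR genes ordered by fold change, with WT in blue, Hnrnpf bKO in orange, circles for replicate 1 and triangles for replicate 2. Srsf1 and Srsf5 show a wide gap between the genotypes against a narrow one between replicates, whereas the libraries of Srsf7 are interleaved.

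The targeted gene was lower in Hnrnpf bKO. Hnrnpf counts were 5780 and 6634 in WT against 1167 and 1194 in Hnrnpf bKO, with a log2 fold change of -2.32 (SE 0.06, adjusted p = 1.05e-10, edgeR). Library totals were between 15698567 and 18908963 counts, the SR genes had between 647 and 12015 counts in a library, and the biological coefficient of variation over all genes was 5.9%. Of the follicular B markers, Fcer2a (CD23) had 1280 and 1260 CPM in WT against 1420 and 1530 CPM in Hnrnpf bKO and Ighd had 2790 and 3020 against 3570 and 3490, both called higher, while Ms4a1 had 975 and 977 CPM against 789 and 811 and was called lower. Markers of other cells were low, the 6 T cell markers summing to between 22.0 and 36.9 CPM and the 4 plasma cell markers to between 21.4 and 32.8 CPM over the 4 libraries. The 5 myeloid markers summed to 11.2 and 17.5 CPM in WT and to 21.7 and 32.6 CPM in Hnrnpf bKO, with S100a8 and S100a9 called higher, and none of them was at 0. The 9 sorting stress genes summed to 301 and 269 CPM in WT and to 220 and 238 CPM in Hnrnpf bKO, with Fos and Junb called lower. The 4 germinal center and cycling markers varied between replicates, at 58.8 and 95.3 CPM in WT against 92.1 and 45.1 CPM in Hnrnpf bKO, and none was called. The 3 transitional B markers summed to between 107 and 119 CPM and the 4 marginal zone markers to between 562 and 571 CPM. The 4 erythroid markers, 3 of them tested, summed to between 1.56 and 3.97 CPM. Within the transitional list Cd93 was called higher (8.43 and 11.7 CPM in WT, 16.6 and 19.7 CPM in Hnrnpf bKO) and Spn lower (34.0 and 38.9, 26.6 and 27.4). All 4 marginal zone markers were called, Cd1d1 (57.5 and 65.3, 76.5 and 79.3) and Plac8 (157 and 166, 198 and 189) higher and S1pr3 (16.7 and 17.3, 12 and 12.7) and Dtx1 (340 and 315, 275 and 285) lower. None of the T cell, plasma cell or erythroid markers was called. The differences in B cell subset, myeloid and stress markers run with genotype, as do the SR differences, and their part in the latter was not tested. In bulk RNA, fewer cells of a type and less RNA per cell cannot be told apart.

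Srsf1 (ENSMUSG00000018379, chr11:88047373-88053755, plus strand) encodes the founding SR protein, which promotes use of exons with purine-rich enhancers and helps U1 find the 5′ splice site. Its level was 425 and 439 CPM in WT against 501 and 491 CPM in Hnrnpf bKO. Both Hnrnpf bKO libraries were above both WT libraries, by a gap wider than that between either pair of replicates. The log2 fold change was 0.20 (SE 0.05, 95% interval 0.10 to 0.30) with an adjusted p of 0.0248 in edgeR's quasi-likelihood test. Other settings gave an adjusted p between 0.00348 and 0.141, and the call was lost with limma on FPKM (0.139 and 0.141), with the replicate number as a block (0.0917), without WT replicate 1 (log2 fold change 0.18, adjusted p = 0.093), without Hnrnpf bKO replicate 1 (0.19, 0.132) and without Hnrnpf bKO replicate 2 (0.21, 0.0621). Srsf1 overlaps an annotated antisense gene, Gm11508, which had 0 counts in every library.

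Srsf5 encodes an SR protein with a pair of RNA recognition motifs, related to the products of Srsf4 and Srsf6, and is known as an early gene in cells that enter growth. Its level was 590 and 603 CPM in WT against 677 and 670 CPM in Hnrnpf bKO. The Hnrnpf bKO libraries again lay above the WT libraries without overlap, and the replicates of each genotype were within 0.03 of each other on the log2 scale. The log2 fold change was 0.17 (SE 0.05, 95% interval 0.07 to 0.27) with an adjusted p of 0.0392 in edgeR. This call lay close to the threshold. It was lost without each library in turn, with an adjusted p of 0.115 without WT replicate 1, 0.0506 without WT replicate 2, 0.185 without Hnrnpf bKO replicate 1 and 0.134 without Hnrnpf bKO replicate 2, while the log2 fold change stayed between 0.16 and 0.19. It was also lost with library totals as the only scaling (0.0531), with limma on FPKM (0.142 and 0.144) and with the replicate number as a block (0.134), and over all settings with 4 libraries the adjusted p ranged from 0.0102 to 0.144.

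Part of the Srsf5 signal can be shared with a processed pseudogene, Gm12966, whose sequence matched Srsf5 at 99.0% over 810 bases. Gm12966 itself received 514 and 602 counts in WT against 451 and 513 in Hnrnpf bKO, with a log2 fold change of -0.14 (SE 0.09, adjusted p = 0.424, edgeR), opposite in sign to Srsf5. With the counts of near copies added to their SR gene, the log2 fold change of Srsf5 was 0.16 and the adjusted p was 0.0593.

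The promoters of these 2 called genes are shown because they were the ones whose mRNA passed the test. Each is the 150 bases before the start of the gene in RefSeq (GRCm38.p6), 5′ to 3′ on the gene's strand, with matches to the GC box GGGCGG on either strand in capitals.
Srsf1 promoter, chr11:88047223-88047372: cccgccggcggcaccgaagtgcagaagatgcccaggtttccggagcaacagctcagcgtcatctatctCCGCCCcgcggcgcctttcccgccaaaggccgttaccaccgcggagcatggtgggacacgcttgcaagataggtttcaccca
Srsf5 promoter, chr12:80945349-80945498: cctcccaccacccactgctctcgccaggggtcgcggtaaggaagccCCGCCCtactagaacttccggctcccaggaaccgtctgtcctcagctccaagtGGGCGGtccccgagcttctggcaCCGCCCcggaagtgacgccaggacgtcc

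All 10 SR genes had a promoter in the RefSeq table, and 9 of them, all but Srsf3, held GGGCGG, as did 28.6% of 32851 promoters of the same length. The CCAAT box letters were in 3 (Srsf2, Srsf3 and Srsf10), beside 24.5% of all promoters, and TATAAA was in 2 (Srsf2 and Srsf3), beside 7.6%. Neither CACGTG nor TGACGTCA was found in an SR promoter, beside 4.3% and 1.4% of all promoters. Each motif was searched on both strands, the letters of these motifs do not contain one another, and a match does not show that a factor binds. GC content of the SR promoters was between 59.3% (Srsf7) and 80.0% (Srsf4). The background shares are of all promoters, not matched for GC content or expression. The share with GGGCGG is therefore not shown to be particular to SR genes.

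Srsf4 and Srsf6 encode the other SR proteins of the Srsf5 kind. Srsf6 (ENSMUSG00000016921, chr2:162931528-162937121, plus strand) had 468 and 472 CPM in WT against 490 and 515 CPM in Hnrnpf bKO. The libraries did not overlap, but the log2 fold change of 0.09 (SE 0.05, 95% interval -0.01 to 0.20) had an adjusted p of 0.302 in edgeR. Srsf4 (ENSMUSG00000028911, chr4:131873617-131901706, plus strand) was the gene with the fewest counts and the widest interval. It had 39.5 and 45.2 CPM in WT against 51.4 and 46.7 CPM in Hnrnpf bKO, so that the lower Hnrnpf bKO library stood just above the higher WT library. Its log2 fold change, 0.21 (SE 0.09, 95% interval 0.01 to 0.40), was the largest point value among the SR genes in these libraries, with an adjusted p of 0.207 in edgeR, and was 0.12 to 0.31 when 1 library was left out. Srsf4 overlaps A930004J17Rik on the same strand (306 to 346 counts per library) and Gm12992 on the opposite strand (10 to 39 counts). The library kit is not stated to mark strand, so reads of overlapping genes on opposite strands cannot be told apart.

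Srsf2 encodes SC35, the classical marker protein of nuclear speckles, and lies on chr11:116849901-116853094, minus strand (ENSMUSG00000034120). It had 342 and 337 CPM in WT against 358 and 374 CPM in Hnrnpf bKO, with no overlap. The log2 fold change was 0.11 (SE 0.05, 95% interval 0.00 to 0.22, adjusted p = 0.235, edgeR), which did not pass the test. Its locus is shared with Mettl23 and Mfsd11 on the opposite strand, which had 876 to 1129 and 357 to 487 counts per library.

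Srsf3 and Srsf7 encode the small SR proteins that also act as adaptors for mRNA export. Srsf3 (ENSMUSG00000071172, chr17:29032628-29043373, plus strand) was almost level, at 257 and 254 CPM in WT against 249 and 250 CPM in Hnrnpf bKO. Although the Hnrnpf bKO libraries were both below the WT libraries, the log2 fold change was -0.03 (SE 0.05, 95% interval -0.14 to 0.07, adjusted p = 0.749, edgeR). That interval leaves room for a difference of at most 0.14 on the log2 scale downward. Srsf7 (ENSMUSG00000024097, chr17:80200080-80207307, minus strand) had 337 and 300 CPM in WT against 291 and 313 CPM in Hnrnpf bKO. It was the only SR gene whose genotypes overlapped, because WT replicate 1 was high while WT replicate 2 lay between the Hnrnpf bKO libraries. Its log2 fold change of -0.08 (SE 0.06, 95% interval -0.21 to 0.06, adjusted p = 0.536, edgeR) became 0.01 without WT replicate 1 and lay between -0.16 and -0.03 without each other library.

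Srsf10 encodes an SR protein that turns into a general splicing repressor when dephosphorylated, as in heat shock and mitosis (ENSMUSG00000028676, chr4:135855747-135869908, plus strand). It had 183 and 188 CPM in WT against 169 and 167 CPM in Hnrnpf bKO. Both Hnrnpf bKO libraries were below both WT libraries, and the gap exceeded that between replicates. The log2 fold change was -0.14 (SE 0.05, 95% interval -0.25 to -0.03), the lowest of the SR genes, and its adjusted p of 0.129 in edgeR did not pass the test. Over the settings with 4 libraries that p ranged from 0.0958 to 0.334.

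Srsf11 and Tra2b had small positive differences that did not pass the test. Srsf11 (ENSMUSG00000055436, chr3:158010473-158036639, minus strand), whose product contacts the U2AF splice site factor, had 356 and 350 CPM in WT against 370 and 373 CPM in Hnrnpf bKO. The difference on the log2 scale was 0.07 (SE 0.05, 95% interval -0.03 to 0.18, adjusted p = 0.438, edgeR). Tra2b (ENSMUSG00000022858, chr16:22244549-22266005, minus strand), which activates exons with GAA-rich enhancers, had 122 and 119 CPM in WT and 128 CPM in both Hnrnpf bKO libraries. Its log2 fold change was 0.09 (SE 0.05, 95% interval -0.03 to 0.20, adjusted p = 0.419, edgeR). For both genes the Hnrnpf bKO libraries lay above the WT libraries, by a narrow gap.

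Taking the SR genes as a pool, their summed FPKM was 656 in both WT libraries against 690 and 696 in Hnrnpf bKO. Their share of all counts was 0.312% and 0.313% in WT against 0.328% and 0.33% in Hnrnpf bKO. There were 2.32 and 2.34 Srsf1 counts for each Srsf10 count in WT against 2.96 and 2.94 in Hnrnpf bKO. For Srsf5 over Srsf3 the ratio of counts was 2.30 and 2.37 in WT against 2.71 and 2.68 in Hnrnpf bKO. The replicates of a genotype were close in both ratios. These pairs were picked after the values were seen, so the ratios are descriptions with no test, and library scaling cancels in them.

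**Figure D3:**
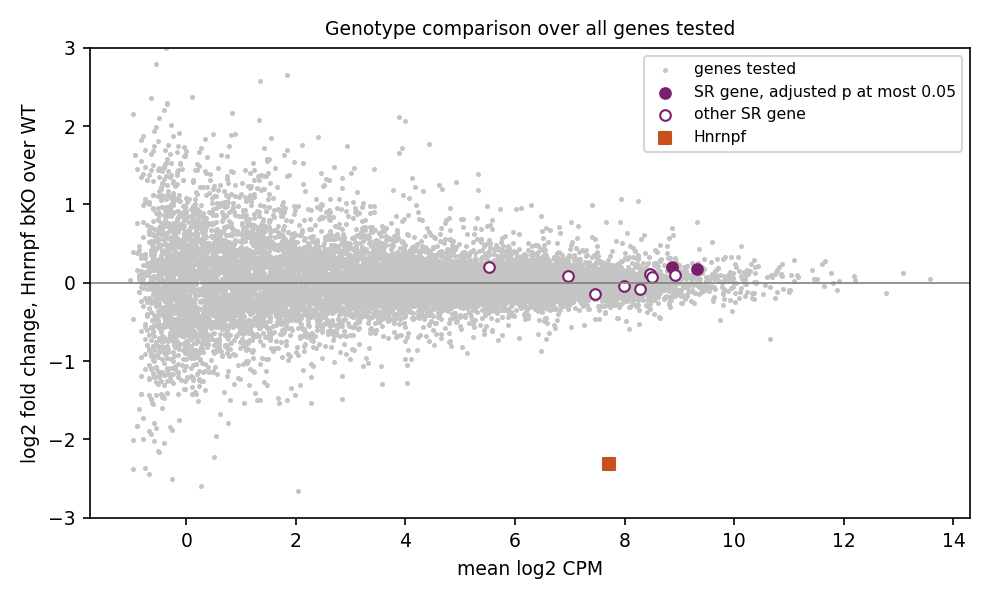
Log2 fold change (Hnrnpf bKO over WT) against mean log2 CPM for the tested genes (grey), with the SR genes as circles, filled where the adjusted p is at most 0.05, and Hnrnpf as an orange square. The SR genes sit close to 0 in the well-expressed range, while Hnrnpf lies at -2.32; 8 genes beyond 3 on the vertical axis are not drawn.

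The genes that surround SR proteins in the pathway were read in the same fit: close relatives, the kinases and import factor that act on SR proteins, and SR-related proteins. Of 30 partner genes 29 were tested, and 5 rose and 1 fell in Hnrnpf bKO, beside the background of 6.97% called (11.9% at SR-like counts). Srsf12, with 3 to 5 counts per library, was too low to test. The median log2 fold change of the 29 was 0.06, and none reached a 2-fold change.

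None of the 3 tested SR relatives was called by edgeR, with 1 of 3 at an unadjusted p under 0.05 and none called by DESeq2. Tra2a, the paralog of Tra2b, had 235 and 202 CPM in WT against 238 and 255 CPM in Hnrnpf bKO, which gave a log2 fold change of 0.18 (SE 0.07, adjusted p = 0.157, edgeR). Srek1, which encodes a regulatory SR-like protein, had a log2 fold change of 0.04 (SE 0.06, adjusted p = 0.775, edgeR).

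Of the 10 kinase and import genes, Clk1 rose and the others did not pass the test. Clk1 encodes a nuclear kinase that phosphorylates SR proteins and frees them from speckles. Its level was 458 and 421 CPM in WT against 490 and 527 CPM in Hnrnpf bKO. The genotypes did not overlap, and the log2 fold change was 0.21 (SE 0.06, adjusted p = 0.0402, edgeR). Without WT replicate 2 the adjusted p was 0.181 and without Hnrnpf bKO replicate 2 it was 0.236, with a log2 fold change of 0.16 in both cases. With the replicate number as a block it was 0.118. The table of splicing events listed Clk1 and Clk4 with 1 skipped exon each, and Clk2 and Srpk2 with 1 alternative 3′ splice site each.

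Among the 16 SR-related genes, 4 rose and 1 fell. Snrnp70, the U1 protein that SR proteins contact, rose from 730 and 744 CPM in WT to 909 and 908 CPM in Hnrnpf bKO, which gave a log2 fold change of 0.30 (SE 0.05, adjusted p = 0.00162, edgeR). Son, a scaffold of nuclear speckles, rose from 1230 and 1130 CPM to 1430 and 1450 CPM, a log2 fold change of 0.29 (SE 0.05, adjusted p = 0.00395, edgeR). Both genes showed gaps between genotypes that were larger than those between replicates, and both kept their call without each library in turn and with the block.

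Luc7l2, a U1-associated factor, had 335 and 388 CPM in WT against 463 and 415 CPM in Hnrnpf bKO, which gave a log2 fold change of 0.28 (SE 0.07, adjusted p = 0.0302, edgeR). Its replicates differed by 0.21 and 0.16 on the log2 scale, and the adjusted p was 0.138 without WT replicate 1, 0.186 without Hnrnpf bKO replicate 1 and 0.0814 with the block. Sfswap, which encodes an SR-like splicing regulator, had 158 and 163 CPM in WT against 186 and 189 CPM in Hnrnpf bKO, which gave a log2 fold change of 0.22 (SE 0.05, adjusted p = 0.022, edgeR). Its call was lost without WT replicate 1 (adjusted p = 0.112), without Hnrnpf bKO replicate 1 (0.0631), without Hnrnpf bKO replicate 2 (0.0675) and with the block (0.0701). Nktr, which encodes a cyclophilin with an arginine-serine domain, fell, from 252 CPM in both WT libraries to 208 and 211 CPM in Hnrnpf bKO. The difference on the log2 scale was -0.27 (SE 0.05, adjusted p = 0.00627, edgeR), and it kept its call without each library in turn and with the block. With limma on FPKM none of these 6 partner calls was kept, with adjusted p from 0.0688 (Snrnp70) to 0.269 (Luc7l2).

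**Figure D4:**
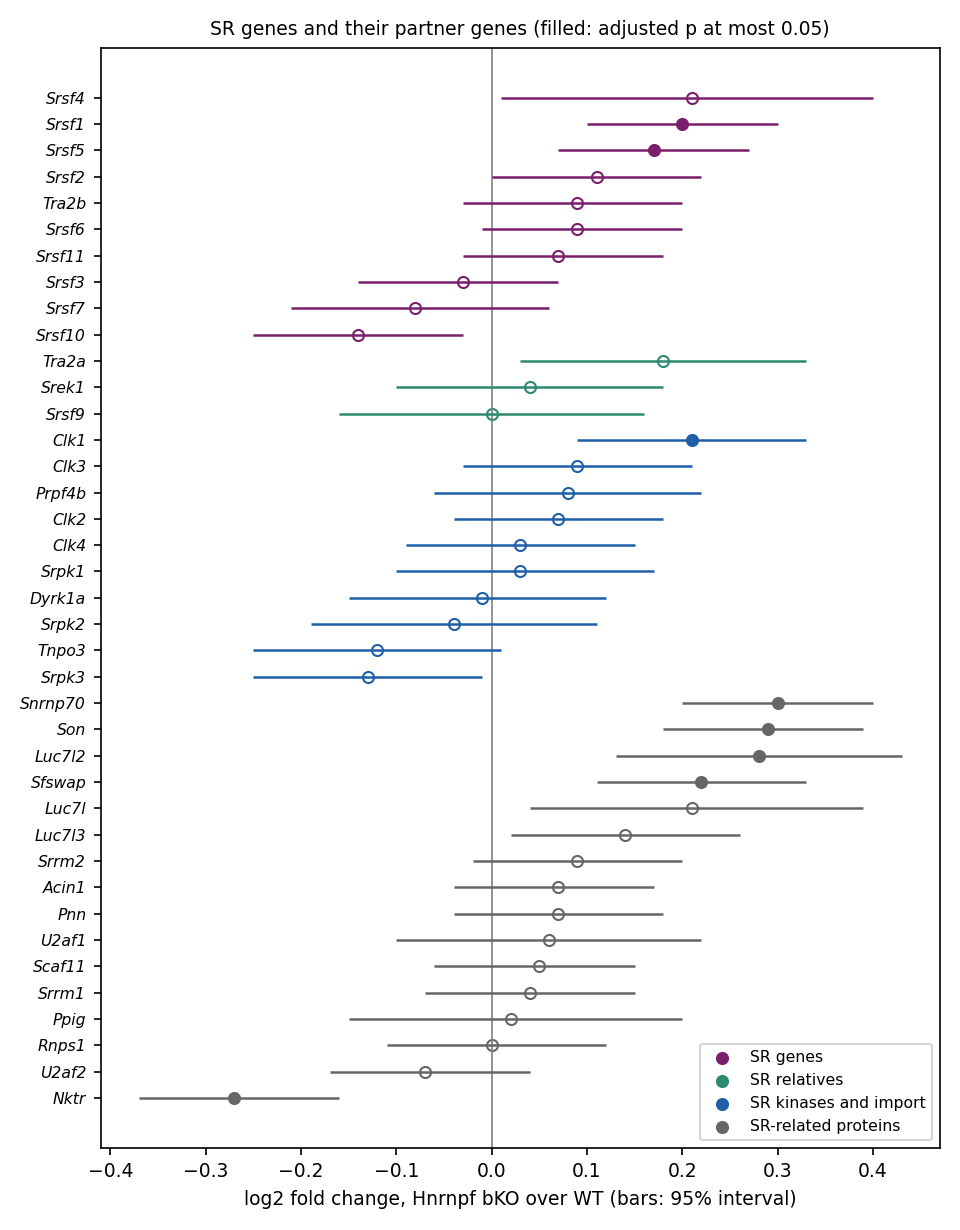
Log2 fold change (Hnrnpf bKO over WT) with its 95% interval for the SR genes and the 29 tested partner genes, coloured by list, with filled circles for an adjusted p of at most 0.05 in edgeR. Srsf1 and Srsf5 are the filled SR genes at 0.20 and 0.17, and Nktr is the filled gene below 0, at -0.27.

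Of the 30 partner genes, 9 were in the authors' table with 12 events (8 skipped exons, 2 alternative 5′ and 2 alternative 3′ splice sites), and none of these was a retained intron. The shares of listed genes in the background were 8.22% of all tested genes and 12.5% of the 4764. Srsf5 was thus the gene of these lists with a retained intron event. Acin1 and Luc7l2 had 2 skipped exons each, and Nktr had 1 skipped exon and 1 alternative 5′ splice site. Clk1, Sfswap, Luc7l2 and Nktr were both listed for splicing and called for abundance, as was Srsf5 among the SR genes. In the background, 1.14% of all tested genes and 2.37% of the 4764 were both listed and called. Srsf1 was called for abundance and not listed.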

How the data were processed

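Poly(A) RNA libraries (NEBNext Ultra kit, paired-end reads) of 2 WT and 2 Hnrnpf bKO FOB cell samples were processed by the authors with cutadapt 1.9.1, HISAT2 2.0.1 on GRCm38 and HTSeq 0.6.1, per the labels and the study's methods. The strand setting and annotation release are not given in the sources used here. The deposited table holds raw read counts and FPKM per gene, and the FPKM could be recomputed from the counts, the library total and the summed exon length. The authors' splicing table, from rMATS, holds event types, FDR values and inclusion differences. Only its event types were used, since the rest is the authors' own comparison.

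The counts were fitted over all genes with edgeR 4.0.16 (R 4.3.3): filterByExpr, TMM scaling, the quasi-likelihood test and Benjamini-Hochberg adjustment, with calls at an adjusted p of at most 0.05. The study's methods used DESeq2, which was run as an alternative (1.42.0), as was limma 3.58.1 on log2(FPKM + 0.1) and log2(FPKM + 1). Other alternatives were scaling, filters, the replicate number as a block and leaving out each library. The script was tested on simulated data. The sources used here do not say whether same-numbered libraries were paired. Deviations of same-numbered libraries correlated at -0.0869, but with 2 libraries per genotype this single value cannot decide the question.

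The members and lists were chosen with earlier results of these data known. Named genes are the 10 members, Hnrnpf and some of the overlapping or near-identical genes (blastn 2.17.0, at least 90% identity over 150 bases). Near copies of Srsf3, Srsf7, Srsf10 and Tra2b had at most 84 counts in a library and are not named. A gene overlapping Srsf11 had at most 33 and is not named either. Also named are the called genes of each partner list or, where none was called, the 2 with the largest change. Markers were described as whole lists with their called members named, and 1 follicular B marker and that list's sum are not reported here. Intron sequences came from GENCODE M21 transcripts and promoters from RefSeq.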

Additional observations from a re-analysis of the deposited data

How the results depend on the processing

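The calls of Srsf1 and Srsf5 depend on the processing, while their direction did not change in any setting run. Against 2 SR genes called of 10, the count was 1 with library totals alone or with near copies added, 0 with limma at either pseudocount, 0 with the replicate block, 0 with a 2-fold limit, and 0 to 1 without 1 library. The log2 fold change of Srsf1 was 0.19 and 0.18 with limma at a pseudocount of 0.1 and 1, 0.20 with the block and 0.18 to 0.23 without 1 library. That of Srsf5 was 0.16 with library totals alone, 0.16 with limma at both pseudocounts, 0.17 with the block, 0.16 with near copies added and 0.16 to 0.19 without 1 library. Srsf7 turned from -0.08 to 0.01 without WT replicate 1, over a range of -0.16 to 0.01. The SR median of 0.09 was 0.07 to 0.11 without 1 library. Of 6 partner genes called, 0 were called with limma at either pseudocount, 3 with the block and 0 with a 2-fold limit. Without 1 library, the log2 fold changes of these 6 genes kept their sign. They ranged from 0.16 (Clk1) to 0.39 (Luc7l2) for the higher genes and from -0.28 to -0.25 for Nktr. Over all genes, 985 were called, against 621 with DESeq2, 45 and 41 with limma at 0.1 and 1, 612 with the block, 127 with a 2-fold limit and 566 of those expressed at least like the lowest SR gene. The FPKM order held for 7 of 10 genes per main transcript length in the mean of all 4 libraries. That setting was chosen after seeing the data, as were the near copies and the expression limit. The cause of these changes was not tested, except that the limits on fold and expression can only remove genes. The block result is given as a setting only, since it is not known whether the numbers pair the samples. A fit without 1 library assumes that the lone sample varies like the other genotype. DESeq2, RLE size factors and both other filters on low counts called Srsf1 and Srsf5. Counts per exonic length are the FPKM by construction, so that planned setting tests nothing. The standard errors of the SR log2 fold changes, 0.05 to 0.09, set the precision of each value.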
